A study of Mus musculus with 24 samples.

Results

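Mitosis genes are 38 genes that act when a cell enters, carries out and leaves mitosis, followed here by their rows in a table of raw counts. They were chosen by name, by a rule that uses no measured value, although the list was drawn up with earlier results of these data known. All 38 were found among the 53465 genes of the table, and all 38 were among the 14785 genes that passed the filter on low counts.

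RNA came from mouse adipocytes that were grown in culture from the stromal vascular fraction, the non-fat cells of adipose tissue, of epididymal (eWAT) and inguinal (iWAT) white fat. Confluent cells were given a differentiation mix for 2 days and then kept in insulin for 5 days. The adipocyte knockout mice (aKO) carried Senp2flox/flox with Adipoq Cre, and the control mice (Cont) carried Senp2flox/flox without Cre, so that floxed Senp2 was common to all samples. Cells received an siRNA against C/EBPβ (siC/EBPb) or siNS, a name that the labels leave unexplained. In each depot this gave 4 groups of 3 libraries, aKO siC/EBPb, aKO siNS, Cont siC/EBPb and Cont siNS, or 24 libraries in 8 groups. Adipoq Cre acts in cells that have turned on the adipocyte gene Adipoq, so precursors and other cells of an aKO culture keep Senp2. The labels give no age or sex and do not state whether the replicates of a group came from different animals or dishes. The p-values therefore cover the spread among these libraries, which may be technical.

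Mitosis is set off by cyclin-dependent kinase 1 (Cdk1) with cyclins A and B. The chromosomes are condensed, attached to a spindle through their kinetochores, held by a checkpoint until all are attached, and pulled apart once the anaphase-promoting complex is activated, after which a contractile ring splits the cell. Transcripts of these genes peak together in G2 phase and mitosis and are low in resting cells, so they are widely used as a measure of dividing cells. In a mouse preadipocyte line, confluent cells divide again after the differentiation mix before they become fat cells, and C/EBPβ takes part in that step.

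Genes of this class are known to share promoter elements, the CHR and the CCAAT box, and stretches of 8 promoters are given to show them. Each is the 130 bases before the RefSeq transcription start, on the GRCm38.p6 build, written 5′ to 3′ on the strand of the gene. Capitals mark matches, on either strand, to the CHR (TTTGAA or TTTAAA) and to CCAAT, which did not overlap each other in these stretches. Cdk1, Plk1, Top2a, Mki67, Cdc20 and Kif11 were chosen as members with a CHR match, and Cdc25b and Bub1 as members without one.
Cdk1, chr10:69352913-69353042, minus strand: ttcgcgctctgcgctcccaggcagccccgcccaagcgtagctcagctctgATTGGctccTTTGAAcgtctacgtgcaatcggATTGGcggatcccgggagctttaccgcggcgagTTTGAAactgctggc
Plk1, chr7:122159305-122159434, plus strand: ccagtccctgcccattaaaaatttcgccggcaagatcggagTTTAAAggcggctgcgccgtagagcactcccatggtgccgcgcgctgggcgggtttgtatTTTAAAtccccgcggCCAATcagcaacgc
Top2a, chr11:99024190-99024319, minus strand: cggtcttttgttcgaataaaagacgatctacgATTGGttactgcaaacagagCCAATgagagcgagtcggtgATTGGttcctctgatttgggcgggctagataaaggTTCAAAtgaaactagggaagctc
Mki67, chr7:135716380-135716509, minus strand: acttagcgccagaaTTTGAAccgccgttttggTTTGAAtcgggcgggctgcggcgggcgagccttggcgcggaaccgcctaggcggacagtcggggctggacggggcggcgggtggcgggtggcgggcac
Cdc20, chr4:118437344-118437473, minus strand: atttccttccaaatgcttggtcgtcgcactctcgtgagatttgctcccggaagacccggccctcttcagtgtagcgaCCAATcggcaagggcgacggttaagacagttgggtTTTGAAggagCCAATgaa
Kif11, chr19:37376252-37376381, plus strand: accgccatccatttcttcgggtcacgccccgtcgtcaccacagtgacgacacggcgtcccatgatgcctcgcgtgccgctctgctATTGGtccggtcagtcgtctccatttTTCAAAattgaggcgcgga
Cdc25b, chr2:131186818-131186947, plus strand: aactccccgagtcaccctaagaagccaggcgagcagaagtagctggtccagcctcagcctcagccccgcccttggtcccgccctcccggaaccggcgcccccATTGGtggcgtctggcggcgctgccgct
Bub1, chr2:127831860-127831989, minus strand: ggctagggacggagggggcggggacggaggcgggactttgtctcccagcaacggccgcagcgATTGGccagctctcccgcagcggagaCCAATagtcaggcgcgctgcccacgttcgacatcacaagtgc

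RefSeq promoter windows, from 250 bases before to 50 after the start, were matched by symbol to 31 of the 38 genes, all but Ccna2, Cdc25c, Foxm1, Aurkb, Incenp, Tpx2 and Kif20a. For 20 of the 31, bases just after the start were found in a transcript of that gene in the GENCODE M21 annotation. They were not found for the rest, so the start is less certain there. A CHR match was found in 26 of the 31 windows (83.9%) and in 27.6% of all 32851 windows. CCAAT was found in 24 of the 31 (77.4%) and in 37.4% of all windows, and both elements in 22 of the 31 and in 10.7% of all windows. Mad2l1, Nuf2 and Nusap1 had neither match. An E2F sequence (TTTCCCGC, TTTGGCGC or TTTCGCGC, either strand) was in 1 window, that of Cdk1 (3.23%), against 1.84% of all windows. The C/EBP sequence TTGCNNAA, with N for any base and either strand, was in 0 of the 31 windows and in 10.8% of all windows. These are matches of letters and not measured binding.

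Counts assigned to genes were 8435494 to 15388744 in 23 libraries and 603585 in the other, iWAT aKO siNS replicate 2, in which 93.3% of listed reads were not aligned (16.8% to 27.6% elsewhere). The 38 genes had a median count of 7 in that library, against 186 to 428 in the others, so its values for single genes carry a large counting error. That library was kept in the fit, so it enters every result for iWAT aKO siNS, and results without it are given for some genes and counts. In bulk RNA, fewer dividing cells and less RNA per dividing cell cannot be told apart. The 2 targeted genes were Cebpb, at 27.4 ± 6.49 CPM (gene counts scaled to library size with TMM factors; mean ± SD, n = 3) in eWAT aKO siC/EBPb and 151 ± 8.67 in eWAT aKO siNS, and 50.4 ± 7.56 in eWAT Cont siC/EBPb and 168 ± 12.5 in eWAT Cont siNS, and Senp2. In iWAT, Cebpb was at 18.5 ± 5.43 CPM in aKO siC/EBPb, 115 ± 11.9 in aKO siNS, 36.0 ± 2.02 in Cont siC/EBPb and 125 ± 18.3 in Cont siNS. Senp2 was at 47.6 ± 4.82 CPM in eWAT aKO siNS and 54.5 ± 2.35 in eWAT Cont siNS. Its log2 fold change for aKO against Cont with siNS was -0.198 ± 0.0721 (± SE) in eWAT and -0.0619 ± 0.0824 in iWAT. With siC/EBPb it was 0.0941 ± 0.0717 in eWAT and 0.0630 ± 0.0733 in iWAT. None of these had an adjusted p under 0.05 in the quasi-likelihood test of edgeR (0.0519, 0.688, 0.509 and 0.731). Counts over the whole gene include reads outside the deleted part and from cells without Cre, so they check nothing about the genotype labels.

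The 38 genes together were highest in Cont siNS and lower in the other 3 groups of each depot. In eWAT their summed level was 910.1, 773 and 742 CPM in the aKO siC/EBPb libraries, 892, 897 and 842 in aKO siNS, 921, 987 and 922 in Cont siC/EBPb, and 1468, 1318 and 1329 in Cont siNS. In iWAT it was 936, 831 and 787 CPM in aKO siC/EBPb, 936, 801 and 874 in aKO siNS, 982, 1016 and 1004 in Cont siC/EBPb, and 1481, 1379 and 1359.9 in Cont siNS. No library of the other 3 groups reached the lowest Cont siNS library of its depot, while aKO siC/EBPb and aKO siNS overlapped. As a percentage of the Cont siNS mean, the median gene stood at 62.3% in eWAT aKO siC/EBPb, 64.7% in eWAT aKO siNS and 72.1% in eWAT Cont siC/EBPb, and at 63.5%, 62.0% and 74.4% in the same iWAT groups.

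**Figure D1:**
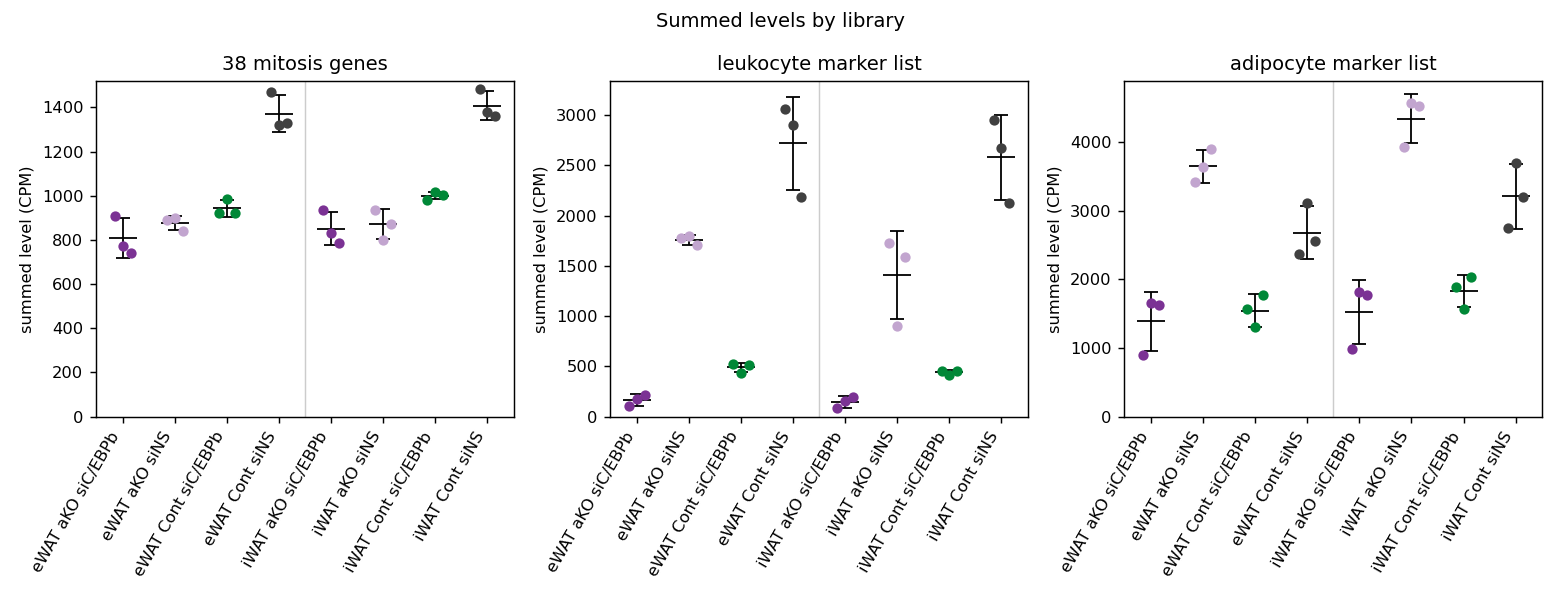
Summed level (CPM) of the 38 mitosis genes, of 14 leukocyte markers and of 16 adipocyte markers in each of the 24 libraries (points), with the mean and SD of each group (bars, n = 3). The mitosis genes lie between 742 and 1016 CPM in the libraries outside Cont siNS and between 1318 and 1481 CPM in Cont siNS.

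Among the single genes, the mean was highest in Cont siNS for all 38 in eWAT and for 37 in iWAT. The exception, Cdc25b, was at 14.3, 29.7 and 14.6 CPM in iWAT aKO siNS and 19.1, 18.0 and 14.3 CPM in iWAT Cont siNS, and its highest value was that of the shallow library, from 15 counts. In eWAT the lowest mean was in aKO siC/EBPb for 24 genes and in aKO siNS for 14, and in iWAT for 18 and 20. Compared per length of exon, the members with the highest mean over the 24 libraries were Mki67 (50.9 TPM, a level per exon length), Cdc20 (47.8 TPM), Top2a (38 TPM) and Plk1 (35.0 TPM). The least abundant were Ttk (4.56 TPM) and Cdc25c (3.03 TPM). The order of the top genes changed with the group, with Mki67 at 31.7 TPM and Cdc20 at 50.8 TPM in eWAT aKO siC/EBPb, and Mki67 at 76.4 TPM and Cdc20 at 62.5 TPM in eWAT Cont siNS.

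Loss of Senp2 in adipocytes, with siNS, was compared first. Of the 38 genes, eWAT had 36 that fell and iWAT 36, and none rose. Here and below, "fell" and "rose" mean an adjusted p under 0.05 in the quasi-likelihood (QL) test of edgeR, over all 14785 genes. By that rule 10.9% of all tested genes fell and 9.50% rose in eWAT, and 7.85% fell and 7.32% rose in iWAT. The median log2 fold change of the 38 was -0.63 in eWAT and -0.62 in iWAT, or 0.646 and 0.650 times the Cont level, while the median of all tested genes was within 0.01 of zero in both depots. The aKO libraries all lay below the Cont libraries for 36 genes in eWAT and 33 in iWAT, against 20.1% and 14.2% of all tested genes. The genes that fell in both depots numbered 35, all but Cdc25b, Spc25 and Cenpa.

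Mki67 and Top2a, genes of the mitotic chromosome, both fell in both depots. Mki67, which coats mitotic chromosomes and marks dividing cells, was at 132, 127 and 118 CPM in eWAT aKO siNS and 225, 202 and 203 CPM in eWAT Cont siNS. Its iWAT values were 144, 134 and 132 CPM in aKO siNS and 252, 244 and 219 CPM in Cont siNS. The groups did not overlap in either depot, and Mki67 fell by 0.74 ± 0.078 (log2, ± SE, n = 3 each) in eWAT and by 0.80 ± 0.085 in iWAT. Top2a, the topoisomerase that untangles sister chromatids, was at 88.8, 84.1 and 78.4 CPM in eWAT aKO siNS and 145, 131 and 131 CPM in eWAT Cont siNS. Its iWAT values were 91.5, 77.1 and 87.2 CPM in aKO siNS and 143, 149 and 133 CPM in Cont siNS. Its log2 fold changes were -0.70 ± 0.076 and -0.68 ± 0.085, again without overlap.

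Of the 9 genes of mitotic entry, 8 fell in each depot, with medians of -0.57 in eWAT and -0.59 in iWAT. Ccnb1, which encodes cyclin B1, was at 21.6, 15.8 and 19.6 CPM in iWAT aKO siNS and 30.3, 30.1 and 28.7 CPM in iWAT Cont siNS. Plk1, a kinase that promotes entry and spindle assembly, was at 17.2, 19.6 and 19.2 CPM in eWAT aKO siNS and 31.1, 26.5 and 27.3 CPM in eWAT Cont siNS. Neither gene overlapped between the groups, and the log2 fold change was -0.54 ± 0.11 for Ccnb1 in iWAT and -0.60 ± 0.10 for Plk1 in eWAT. Cdk1 itself was at 24.9, 25.8 and 24.7 CPM in eWAT aKO siNS and 41.0, 35.3 and 33.9 CPM in eWAT Cont siNS, a fall of 0.55 ± 0.11 with every aKO library below every Cont library. In iWAT Cdk1 fell by 0.46 ± 0.12 (edgeR QL adjusted p = 0.00980), a call that was lost on leaving out iWAT aKO siNS replicate 3 (0.0978) or iWAT Cont siNS replicate 1 (0.0965). Foxm1, the transcription factor of many genes of this class, was at 20.4, 18.3 and 17.7 CPM in eWAT aKO siNS and 29.6, 25.6 and 27.8 CPM in eWAT Cont siNS, and fell by 0.56 ± 0.097 there and by 0.68 ± 0.12 in iWAT. Aurka, the kinase of the spindle poles, fell by 0.58 ± 0.11 and 0.59 ± 0.14.

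Of the phosphatases that activate Cdk1, Cdc25c passed and Cdc25b did not, and they were not tested against each other. Cdc25b was at 15.5, 14.5 and 15.7 CPM in eWAT aKO siNS and 19.8, 18.9 and 15.7 CPM in eWAT Cont siNS, so that the groups met, and it did not pass (-0.25 ± 0.12, edgeR QL adjusted p = 0.150). In iWAT its value was -0.20 ± 0.14, and -0.27 without the shallow library (edgeR QL adjusted p = 0.378 and 0.155). Cdc25c, the least abundant member, was at 3.39, 4.54 and 2.53 CPM in eWAT aKO siNS and 5.47, 6.38 and 5.27 CPM in eWAT Cont siNS. It fell by 0.72 ± 0.18 in eWAT (edgeR QL adjusted p = 0.00379, and 0.0507 without eWAT aKO siNS replicate 3), and 12.7% of its exon bases overlap another gene on the opposite strand. In iWAT Cdc25c was past the threshold (-0.64 ± 0.21, edgeR QL adjusted p = 0.0408) but not with any one of 4 libraries left out, iWAT aKO siNS replicates 1 and 3 (0.0950 and 0.172) and iWAT Cont siNS replicates 1 and 2 (0.0779 and 0.195).

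The chromosomal passenger complex, which corrects faulty attachments, had 3 of 3 members lower in each depot. Its kinase Aurkb was at 11.7, 11.0 and 12.9 CPM in eWAT aKO siNS and 17.0, 18.0 and 16.7 CPM in eWAT Cont siNS, without overlap (-0.54 ± 0.11). Birc5, which encodes survivin, was at 14.1, 14.4 and 13.9 CPM in eWAT aKO siNS and 19.8, 18.9 and 16.5 CPM in eWAT Cont siNS (-0.38 ± 0.092). The scaffold Incenp fell by 0.55 ± 0.094 in eWAT and 0.49 ± 0.11 in iWAT. In iWAT the shallow aKO siNS library, at 65.3 CPM, lay above the lowest Cont siNS library (51.5 CPM). The log2 fold change of Incenp without it was -0.554. The iWAT calls of Aurkb and Incenp were lost without iWAT aKO siNS replicate 3 (edgeR QL adjusted p = 0.0572 and 0.0792).

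Of the 10 genes of the kinetochore and spindle checkpoint, 9 fell in each depot. Cenpf, a large protein of the outer kinetochore, was at 19.6, 18.7 and 18.1 CPM in eWAT aKO siNS and 36.8, 34.1 and 35.2 CPM in eWAT Cont siNS. This was the largest fall of the 38 in eWAT (-0.91 ± 0.088, edgeR QL adjusted p = 1.4e-08), with a wide gap between the groups. The largest in iWAT was that of Ndc80, whose protein joins the kinetochore to microtubules, at 7.49, 3.96 and 7.68 CPM in aKO siNS and 17.0, 13.2 and 13.6 CPM in Cont siNS (-0.98 ± 0.17). The second aKO value rests on 2 counts of the shallow library, and the groups were apart without it as well. Bub1, a checkpoint kinase, fell by 0.64 ± 0.13 and 0.65 ± 0.15, and Cenpe, a kinetochore motor, by 0.69 ± 0.12 and 0.63 ± 0.14. Without the shallow library the iWAT values were -0.620 for Bub1 and -0.673 for Cenpe. Cenpe was at 45.5 CPM in that library, above the lowest iWAT Cont siNS library (41.5 CPM). Spc25, of the same complex as Ndc80, did not pass in eWAT (-0.28 ± 0.11, edgeR QL adjusted p = 0.0856), nor did Cenpa, the histone of centromeres, in iWAT (-0.41 ± 0.15, edgeR QL adjusted p = 0.0648).

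Spindle genes (6 of 6 in each depot) and cytokinesis genes (6 of 6 in each depot) all fell, with medians of -0.74 and -0.65 in eWAT and -0.69 and -0.58 in iWAT. Anln, which encodes anillin of the contractile ring, was at 41.2, 41.2 and 38.5 CPM in eWAT aKO siNS and 71.4, 64.4 and 75.3 CPM in eWAT Cont siNS, a fall of 0.80 ± 0.086. Kif11, the motor that separates the spindle poles, fell by 0.75 ± 0.096 and 0.71 ± 0.12, and Hmmr, a spindle protein, by 0.67 ± 0.11 and 0.79 ± 0.12. Ect2, which turns on the small GTPase RhoA at the cleavage site, was at 9.70, 14.8 and 12.0 CPM in eWAT aKO siNS and 21.6, 18.6 and 22.5 CPM in eWAT Cont siNS (-0.77 ± 0.13). The anaphase-promoting complex was represented by its activator Cdc20, at 22.2, 21.6 and 22.6 CPM in eWAT aKO siNS and 32.9, 29.7 and 33.2 CPM in eWAT Cont siNS, and by its ubiquitin-conjugating enzyme Ube2c. Ube2c shares 22.8% of its exon bases with Tnnc2 on the opposite strand. Cdc20 fell by 0.53 ± 0.090 in eWAT and 0.54 ± 0.11 in iWAT. Of the 36 calls, 34 in eWAT and 25 in iWAT held with each library of the comparison left out in turn. With the 6 iWAT libraries fitted alone, 23 members passed. Without the shallow library 37 members passed in iWAT, and 2750 of all tested genes.

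**Figure D2:**
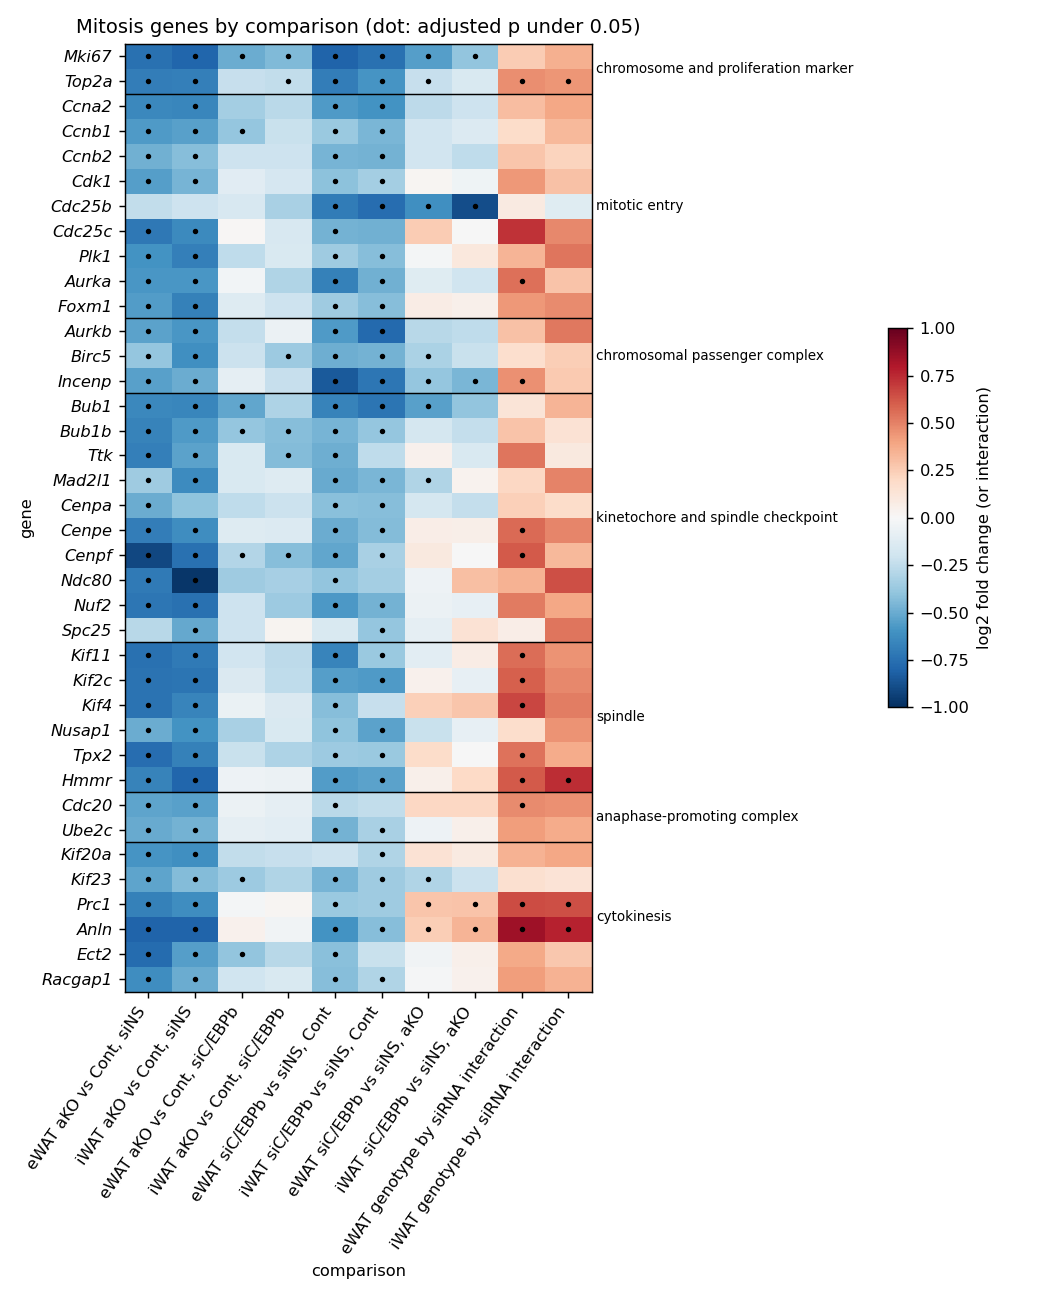
Log2 fold change of each of the 38 genes (rows, grouped by role) in 8 comparisons, and the difference between 2 log2 fold changes in 2 interaction columns, from -1 (blue) to 1 (red). Dots mark an adjusted p under 0.05 in the edgeR QL test, which 36 genes passed in the first column and 13 in the eWAT interaction.

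Knockdown of C/EBPβ in Cont cells, siC/EBPb against siNS, was the second comparison. It uses the same Cont siNS libraries as the genotype comparison above. Of the 38 genes, 36 (eWAT) and 32 (iWAT) fell and none rose, where 14.9% of all tested genes fell and 11.8% rose in eWAT, and 14.0% fell and 10.3% rose in iWAT. The median log2 fold change was -0.47 in eWAT and -0.43 in iWAT, against 0.023 and 0.0042 over all tested genes. Libraries did not overlap for 35 and 32 members, and for 23.0% and 21.7% of all genes in that direction (23.0% and 21.1% in the other). The genes that fell in both depots numbered 30.

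The scaffold Incenp had the largest fall in eWAT, at 29.6, 28.6 and 29.0 CPM in Cont siC/EBPb and 56.3, 53.3 and 46.8 CPM in Cont siNS (-0.84 ± 0.095). Mki67 came next, at 124, 125 and 112 CPM in eWAT Cont siC/EBPb, and at 137, 143 and 146 CPM in iWAT Cont siC/EBPb, against the Cont siNS values given above (-0.80 ± 0.078 and -0.75 ± 0.078). Every siC/EBPb library was well below every siNS library for both genes. Cdc25b, which had not passed between the genotypes, was at 11.0, 11.0 and 11.3 CPM in eWAT Cont siC/EBPb and 19.8, 18.9 and 15.7 CPM in eWAT Cont siNS, and fell by 0.70 ± 0.12. The iWAT values were 8.37, 11.6 and 10.4 CPM in Cont siC/EBPb and 19.1, 18.0 and 14.3 CPM in Cont siNS (-0.76 ± 0.13). The largest fall in iWAT was that of Aurkb, at 7.04, 9.36 and 9.40 CPM in Cont siC/EBPb and 16.7, 14.9 and 12.5 CPM in Cont siNS (-0.78 ± 0.13, edgeR QL adjusted p = 2.6e-05). Bub1 was at 13.3, 14.1 and 11.9 CPM in eWAT Cont siC/EBPb and 23.9, 20.7 and 17.9 CPM in eWAT Cont siNS (-0.67 ± 0.13), and fell by 0.73 ± 0.14 in iWAT.

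By role, the chromosome genes (2 of 2 in each depot) and the passenger complex (3 of 3 in each) had the largest medians, -0.75 and -0.57 in eWAT and -0.67 and -0.72 in iWAT. Mitotic entry genes fell in 9 and 8 of 9 cases, kinetochore and checkpoint genes in 9 and 8 of 10, spindle genes in 6 and 5 of 6, and cytokinesis genes in 5 and 5 of 6. Top2a was at 80.1, 90.0 and 81.1 CPM in eWAT Cont siC/EBPb and fell by 0.69 ± 0.076. Ccnb1 was at 21.7, 20.5 and 22.8 CPM in iWAT Cont siC/EBPb, below each Cont siNS library, and fell by 0.46 ± 0.10. The smallest values were those of Spc25 (-0.16 ± 0.11, edgeR QL adjusted p = 0.339), of Kif20a, a motor of the central spindle (-0.21 ± 0.10, edgeR QL adjusted p = 0.137), and of Cdc20 (-0.27 ± 0.088, edgeR QL adjusted p = 0.0228) in eWAT. Kif20a shares 29.3% of its exon bases with Cdc23 on the opposite strand. Cdc20 was at 26.6, 27.1 and 25.8 CPM in eWAT Cont siC/EBPb, and its call was lost without any one of eWAT Cont siC/EBPb replicates 1 and 3 (0.0544 and 0.0696) and eWAT Cont siNS replicates 1 and 3 (0.0822 and 0.0812). Ect2 had the smallest change in iWAT (-0.22 ± 0.13, edgeR QL adjusted p = 0.239), followed by the chromosome motor Kif4 (-0.23 ± 0.14). Of the calls, 28 of 36 in eWAT and 22 of 32 in iWAT held with each library left out in turn.

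**Figure D3:**
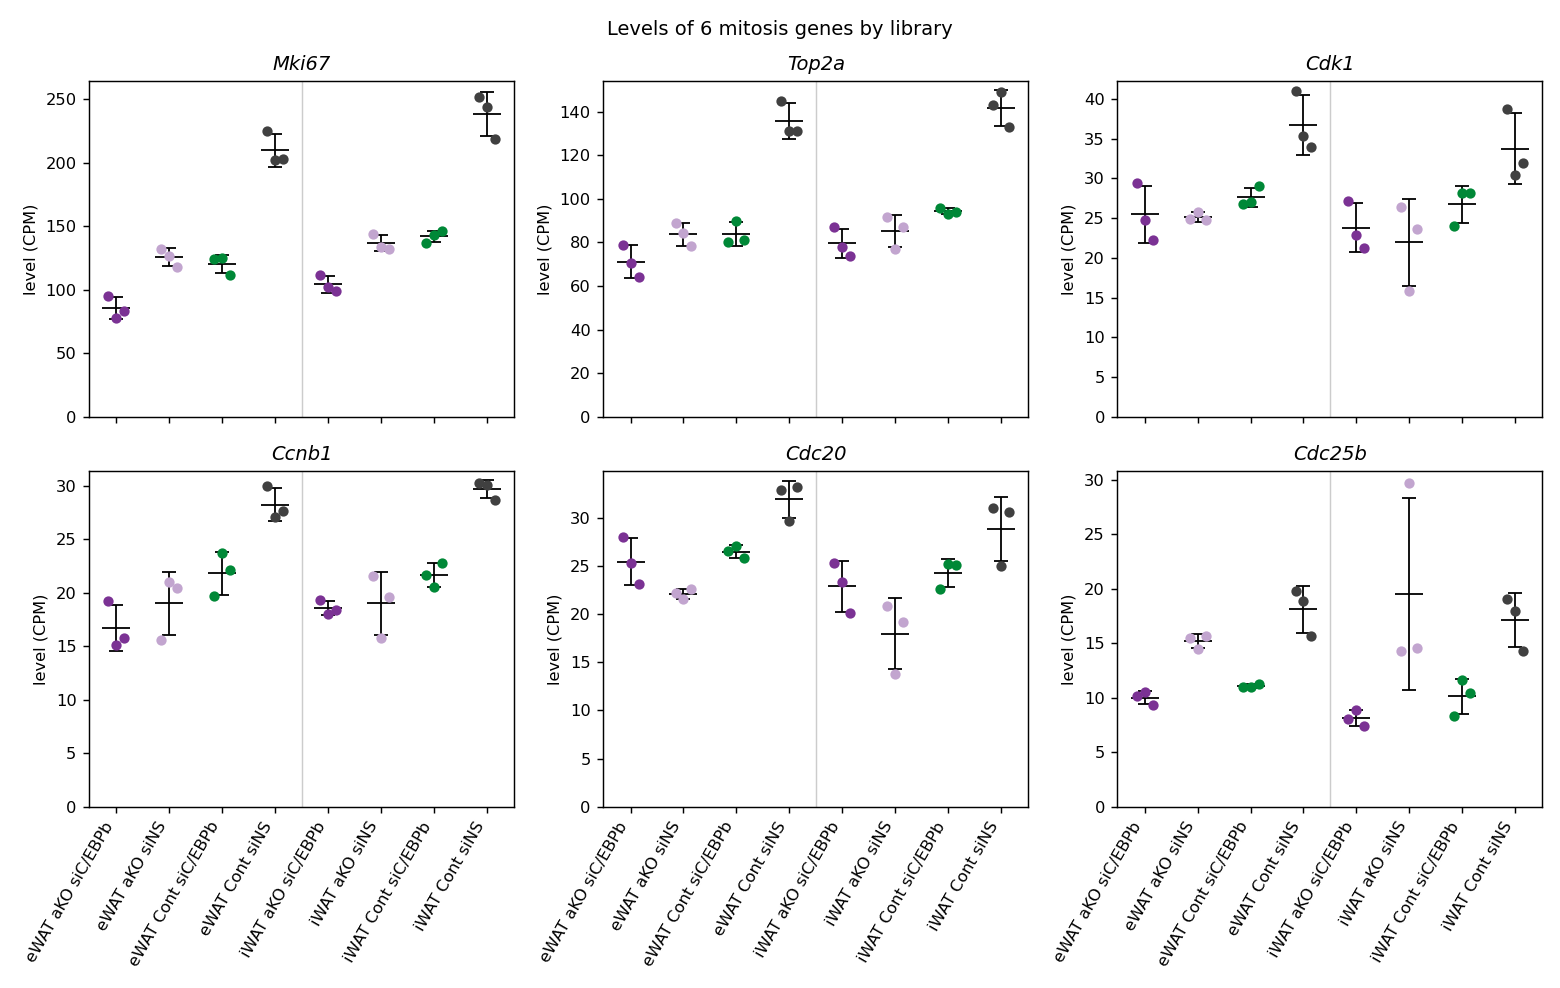
Level (CPM) of 6 mitosis genes in each of the 24 libraries (points), with the mean and SD of each group (bars, n = 3). Mki67 is lower in aKO siC/EBPb than in every other group, Cdc20 is lowest in aKO siNS, and Cdc25b follows the siRNA, apart from the shallow iWAT aKO siNS library at 29.7 CPM.

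In aKO cells the same knockdown left most of the 38 genes near their level with siNS. In eWAT 8 fell and 2 rose, where 19.1% and 16.6% of all tested genes did, and in iWAT 3 fell and 2 rose, against 17.7% and 13.6%. Both shares lie near or below the background in each depot. The median log2 fold change was -0.055 in eWAT and -0.026 in iWAT, against -0.0011 and -0.0062 over all tested genes. The siC/EBPb libraries lay all below the siNS libraries for 9 members in eWAT and 5 in iWAT, against 23.8% and 16.5% of all genes, and all above them for 3 and 4, against 22.5% and 18.5%.

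The genes that fell in both depots were Cdc25b, Mki67 and Incenp. Cdc25b was at 10.2, 10.5 and 9.34 CPM in eWAT aKO siC/EBPb and 15.5, 14.5 and 15.7 CPM in eWAT aKO siNS (-0.61 ± 0.13, edgeR QL adjusted p = 3.62e-04). The iWAT values were 8.04, 8.88 and 7.41 CPM in aKO siC/EBPb and 14.3, 29.7 and 14.6 CPM in aKO siNS (-0.88 ± 0.15, and -0.82 without the shallow library). Mki67 was at 95.3, 77.8 and 83.6 CPM in eWAT aKO siC/EBPb, below the 132, 127 and 118 CPM of aKO siNS, and at 112, 102 and 99.3 CPM in iWAT aKO siC/EBPb, below the 144, 134 and 132 CPM of aKO siNS. It fell by 0.55 ± 0.079 and 0.39 ± 0.085, and Incenp by 0.39 ± 0.099 and 0.46 ± 0.11. With the 6 iWAT libraries fitted alone, 1 member passed, and the edgeR QL adjusted p was 0.0797 for Mki67 and 0.0791 for Incenp. Bub1 was at 11.2, 8.20 and 7.96 CPM in eWAT aKO siC/EBPb and 14.0, 14.4 and 11.7 CPM in eWAT aKO siNS (-0.54 ± 0.14), and did not pass in iWAT (-0.39 ± 0.16, edgeR QL adjusted p = 0.0631).

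The genes that rose were Anln and Prc1 of the 6 cytokinesis genes, while Kif23, a motor of the central spindle, fell in eWAT (-0.30 ± 0.11). Anln was at 54.6, 43.2 and 45.6 CPM in eWAT aKO siC/EBPb and 41.2, 41.2 and 38.5 CPM in eWAT aKO siNS, and rose by 0.25 ± 0.088 (edgeR QL adjusted p = 0.0283). The iWAT values of Anln were 55.6, 48.1 and 48.5 CPM in aKO siC/EBPb and 42.7, 25.7 and 39.1 CPM in aKO siNS, and rose by 0.34 ± 0.099 (edgeR QL adjusted p = 0.00908). The groups did not overlap for Anln in either depot. Prc1, which bundles microtubules between the separating chromosomes, rose by 0.28 ± 0.095 and 0.29 ± 0.11 (edgeR QL adjusted p = 0.0218 and 0.0425), and 11.1% of its exon bases overlap Rccd1 on the opposite strand. These calls depended on single libraries. That of Kif23 was lost without eWAT aKO siC/EBPb replicate 3 (0.116) or eWAT aKO siNS replicates 1 or 2 (0.0907 and 0.0710). In eWAT the adjusted p was 0.267 for Anln and 0.212 for Prc1 without eWAT aKO siC/EBPb replicate 1, 0.102 and 0.0938 without eWAT aKO siNS replicate 3, and 0.0549 for Anln without eWAT aKO siNS replicate 2. In iWAT it was 0.0568 for Anln and 0.197 for Prc1 without iWAT aKO siNS replicate 3, 0.248 for Prc1 without iWAT aKO siC/EBPb replicate 1 and 0.0692 for Prc1 without iWAT aKO siNS replicate 1. The counts of members that passed were 6 in eWAT without eWAT aKO siNS replicate 2 and 3 in iWAT without iWAT aKO siNS replicate 3.

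With siC/EBPb in both genotypes, most of the 38 genes were lower in aKO than in Cont, by less than with siNS. Of the 38 genes 7 fell in eWAT, where 6.87% of all tested genes fell and 3.90% rose, and 6 in iWAT, where 6.51% fell and 3.52% rose. None of the 38 rose. The median log2 fold change was -0.21 in eWAT and -0.23 in iWAT, against -0.0020 and -0.0016 over all tested genes, and 36 of the 38 values were below zero in each depot. Most members follow one another across the libraries, so these signs, and those of the interaction below, are not independent of one another. Libraries of aKO lay all below those of Cont for 16 members in eWAT and 19 in iWAT, against 15.5% and 16.5% of all genes. Mki67, Cenpf and the checkpoint gene Bub1b fell in both depots. Mki67, at 95.3, 77.8 and 83.6 CPM in eWAT aKO siC/EBPb and 124, 125 and 112 CPM in eWAT Cont siC/EBPb, fell by 0.49 ± 0.079, and by 0.44 ± 0.079 in iWAT. Bub1b fell by 0.38 ± 0.092 and 0.42 ± 0.096, and Bub1 by 0.52 ± 0.14 in eWAT alone, with a value of -0.31 ± 0.15 in iWAT. Cebpb itself was lower in aKO than in Cont with siC/EBPb, with log2 fold changes of -0.88 ± 0.17 in eWAT and -0.97 ± 0.19 in iWAT (edgeR QL adjusted p = 0.00134 and 0.00155), and its part in the levels of the mitosis genes was not tested. The smallest differences in eWAT were those of Cdc25c (0.012 ± 0.18), Prc1 (-0.022 ± 0.093), Aurka (-0.029 ± 0.12) and Anln (0.042 ± 0.087).

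Most of these calls changed with single libraries. In eWAT the call of Mki67 held with each library left out in turn and the other 6 did not. The highest edgeR QL adjusted p was 0.0901 for Bub1 (without eWAT aKO siC/EBPb replicate 3), 0.0501 for Bub1b (without eWAT Cont siC/EBPb replicate 3) and 0.184 for Cenpf (without eWAT Cont siC/EBPb replicate 2). The count of members that passed was 13 without eWAT aKO siC/EBPb replicate 1, 3 without eWAT aKO siC/EBPb replicate 2, 2 without eWAT aKO siC/EBPb replicate 3 and 2 without eWAT Cont siC/EBPb replicate 2. In iWAT it was 3 without iWAT aKO siC/EBPb replicate 2 and 3 without iWAT Cont siC/EBPb replicate 2, and Mki67, Bub1b and Cenpf held throughout.

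**Figure D4:**
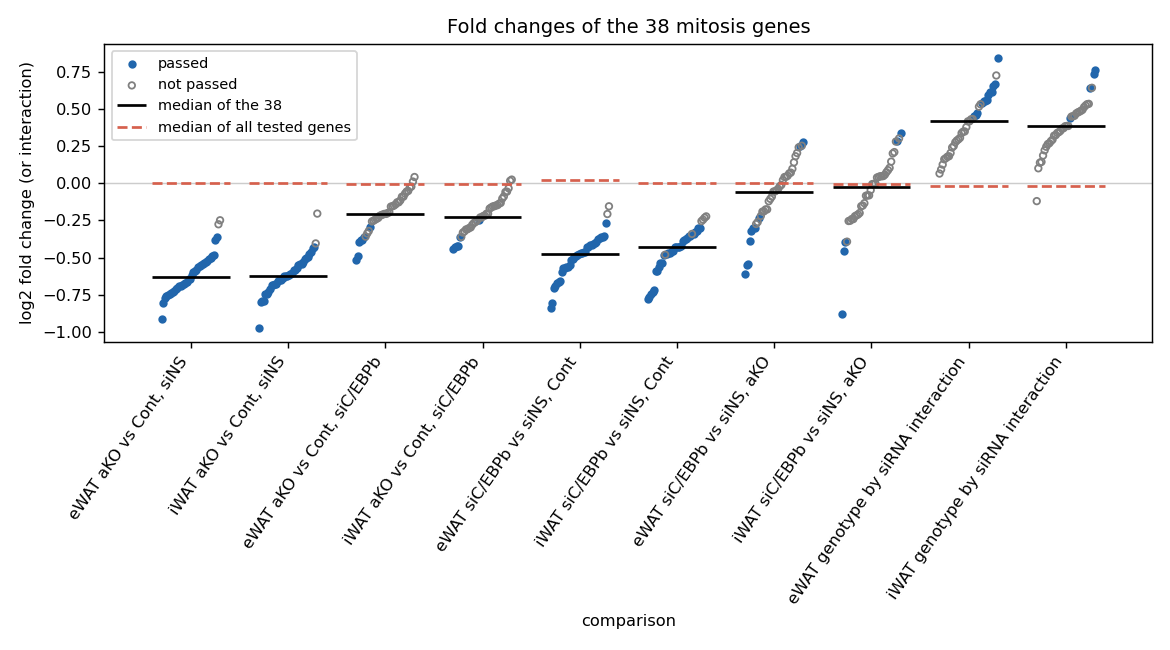
Log2 fold change of each of the 38 genes in 8 comparisons, and the difference between 2 log2 fold changes for the 2 interactions (filled points, adjusted p under 0.05 in the edgeR QL test; open points, others), with the median of the 38 (black line) and of all 14785 tested genes (dashed line). The median of the 38 is -0.63 for aKO against Cont with siNS in eWAT, -0.21 for the same genotypes with siC/EBPb, and 0.42 for the eWAT interaction.

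The interaction asks whether the siRNA effect differed between aKO and Cont cells, as the log2 effect in aKO minus that in Cont. It was above zero for 38 of the 38 genes in eWAT and 37 in iWAT, with medians of 0.42 and 0.39, where the medians over all tested genes were -0.018 and -0.017. It passed for 13 members in eWAT, where 6.34% of all genes passed (3.01% higher and 3.33% lower), and for 4 in iWAT, where 3.51% did (1.32% higher and 2.19% lower). Anln had the largest value in each depot, 0.85 ± 0.12 in eWAT and 0.77 ± 0.13 in iWAT (edgeR QL adjusted p = 8.89e-05 and 7.85e-04). Prc1 (0.65 ± 0.13 and 0.64 ± 0.14), Hmmr (0.61 ± 0.15 and 0.74 ± 0.16) and Top2a (0.46 ± 0.11 and 0.44 ± 0.12) also passed in both. Counting Hmmr, 5 of 6 spindle genes passed in eWAT, with Kif4 at 0.67 ± 0.19, beside Cenpf (0.62 ± 0.13) and Cenpe (0.56 ± 0.17) of the kinetochore. Kif4 shares 15.1% of its exon bases with Pdzd11 on the opposite strand. Cdc25b (0.093 ± 0.18 in eWAT, -0.12 ± 0.20 in iWAT), Bub1 (0.13 ± 0.19 and 0.34 ± 0.21) and Spc25 (0.066 ± 0.16 in eWAT) had small values or wide errors and did not pass. The log2 fold change of Cebpb with siC/EBPb was -2.47 ± 0.17 in aKO and -1.73 ± 0.16 in Cont in eWAT, and -2.69 ± 0.19 in aKO and -1.79 ± 0.17 in Cont in iWAT, with interactions of -0.74 ± 0.23 and -0.90 ± 0.25 (edgeR QL adjusted p = 0.0562 and 0.0522).

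The number of members with a called interaction moved with single libraries. In eWAT it was 3 without aKO siC/EBPb replicate 1, 8 and 7 without aKO siNS replicates 2 and 3, 5 and 7 without Cont siC/EBPb replicates 1 and 3, and 6 without Cont siNS replicate 1. Anln, Prc1 and Cenpf passed in each of these fits. In iWAT it was 7 without aKO siC/EBPb replicate 3, 1 without aKO siNS replicate 3, and 7 without the shallow library, which added Mki67, Plk1 and Cdc20. Without that library the eWAT interaction, fitted with the remaining 23 libraries, passed for 17. Only Anln passed in iWAT with each library left out.

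Between the depots the 38 genes did not differ past the threshold. In Cont siNS 0 of 38 passed for iWAT against eWAT, where 1.20% of all tested genes did (0.690% higher and 0.514% lower), and in aKO siNS 0 of 38, against 0.352%. At an unadjusted p under 0.05 there were 3 and 2 members, and the DESeq2 test called 0 and 0, while limma voom called 0 and 1. The largest difference was that of Cenpf, at 25.6, 19.8 and 23.3 CPM in iWAT aKO siNS and 19.6, 18.7 and 18.1 CPM in eWAT aKO siNS, without overlap (0.37 ± 0.10, edgeR QL adjusted p = 0.118, and 0.0269 without the shallow library). The genotype effect with siNS and the siRNA effect in Cont did not differ between the depots for any of the 38 genes, or for any tested gene (0%), by the edgeR QL, DESeq2 or voom tests. At an unadjusted p under 0.05 there were 0 and 1 members and 415 and 428 genes in all. The differences of the genotype effect ranged from -0.27 ± 0.17 (Mad2l1, a checkpoint protein) to 0.22 ± 0.20 (Ect2).

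Over the 24 libraries most members followed one another closely. As a description, the correlation of each gene's log2 CPM with the mean of the other 37 was 0.342 for Cdc25b, 0.593 for Incenp, 0.601 for Cenpa and 0.652 for Cenpe, and 0.699 or more for the rest, up to 0.958 for Nuf2. These values include the shallow library, whose single-gene counts were 1 to 68, and all genes of a library share its depth and culture. Group means were not removed, so the differences between the groups given above enter each of these correlations and those below. The 10 genes outside the list whose log2 CPM was most like the mean of the 38 were Mcm6 (r = 0.942), Arg1 (0.942), Mcm2 (0.941), Cdca3 (0.939), Ak4 (0.935), Ncapg2 (0.930), Mpp6 (0.930), Hmgb2 (0.927), Nxph4 (0.926) and Ch25h (0.925). Mcm2 and Mcm6 encode subunits of the replicative helicase and Cdca3 and Ncapg2 act in mitosis, while Arg1 encodes arginase.

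Other cell cycle genes were set beside them, from lists that, like the members, were drawn up with earlier results of these data known. Of all tested genes 10.9% (eWAT) and 7.85% (iWAT) fell with aKO against Cont under siNS. With siC/EBPb against siNS in Cont, 14.9% and 14.0% fell and 11.8% and 10.3% rose. Of 52 other mitosis genes, eWAT had 41 and iWAT 31 that fell with aKO against Cont under siNS (medians -0.53 and -0.55), and 29 and 22 fell and 4 and 2 rose with siC/EBPb against siNS in Cont. With siC/EBPb against siNS in aKO, 2 and 0 of the 52 fell and 8 and 7 rose, shares that lie at or below the 16.6% and 13.6% of all tested genes that rose. Kif14, a motor of cytokinesis, fell by 0.90 ± 0.12 in eWAT aKO siNS, and Zwint, a kinetochore protein, rose by 0.52 ± 0.073 and 0.50 ± 0.079 with siC/EBPb in aKO. Of 39 genes of DNA replication and the G1/S step, 27 and 22 fell with the genotype under siNS and 26 and 26 with siC/EBPb in Cont. E2f2, a transcription factor of that step, fell with siC/EBPb by 1.45 ± 0.17 and 1.72 ± 0.19 in Cont and by 1.38 ± 0.18 and 1.86 ± 0.23 in aKO. Of 6 cyclins and kinases of G1, 2 and 3 fell with the genotype under siNS and none rose, and Cdk6 fell by 0.45 ± 0.12 in eWAT.

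Inhibitors of cyclin-dependent kinases went both ways. With aKO against Cont under siNS eWAT had 3 of 7 higher and 1 lower, and iWAT 1 higher and 1 lower. Of all tested genes 9.50% and 7.32% rose and 10.9% and 7.85% fell in that comparison. Cdkn2b, an inhibitor of the G1 kinases, rose by 0.49 ± 0.080 and 0.46 ± 0.092 there and by 0.91 ± 0.079 and 0.87 ± 0.083 with siC/EBPb in Cont, while Cdkn2d, of the same family, fell by 0.44 ± 0.11 and 0.61 ± 0.13 with the genotype. Of 13 genes of the DREAM, MuvB and RB complexes, which repress or activate cell cycle genes, 3 and 2 fell with the genotype under siNS. Rbl1, which encodes the repressor p107, fell by 0.50 ± 0.095 and 0.42 ± 0.11.

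Some markers of other cells in such cultures also differed between the groups, in the direction of the mitosis genes or in the other. Of all tested genes, 10.9% (eWAT) and 7.85% (iWAT) fell and 9.50% and 7.32% rose with aKO against Cont under siNS. With siC/EBPb against siNS in Cont, 14.9% and 14.0% fell and 11.8% and 10.3% rose. Of 14 leukocyte markers 10 fell in eWAT and 8 in iWAT with aKO against Cont under siNS, and 14 and 14 with siC/EBPb against siNS in Cont. Their summed level was 103 to 219 CPM in eWAT aKO siC/EBPb, 1704 to 1797 in aKO siNS, 439 to 519.6 in Cont siC/EBPb and 2189 to 3063 in Cont siNS. The iWAT sum was 85.3 to 196 CPM in aKO siC/EBPb, 906 to 1722 in aKO siNS (1585 and 1722 without the shallow library, which gave the 906), 419 to 454 in Cont siC/EBPb and 2120 to 2948 in Cont siNS. No leukocyte marker was at 0 in a whole group. Within aKO the leukocyte sum was far lower with siC/EBPb than with siNS, without overlap, where the summed mitosis genes overlapped. Other lists also moved in that comparison, where 19.1% and 17.7% of all tested genes fell and 16.6% and 13.6% rose. Of 16 adipocyte markers 13 and 12 fell, as did 6 and 7 of 10 fibroblast and progenitor markers, and 0 rose. Of 9 smooth muscle markers 6 and 5 rose and 0 and 1 fell. Of 8 endothelial markers tested 1 and 1 rose and 1 and 1 fell, and 0 of 6 mesothelial markers passed.

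With aKO against Cont under siNS, 9.50% and 7.32% of all tested genes rose and 10.9% and 7.85% fell. Of 16 adipocyte markers 7 rose in eWAT and 3 in iWAT there, the direction opposite to the mitosis genes. With siC/EBPb against siNS in Cont 6 and 6 fell, the same direction. Their summed level was 893 to 1652 CPM in eWAT aKO siC/EBPb, 3414 to 3897 in aKO siNS, 1301 to 1771 in Cont siC/EBPb and 2373 to 3112 in Cont siNS, with no marker at 0. Of 8 endothelial markers tested 5 and 4 fell and 1 and 1 rose with the genotype under siNS. The sum of all 9 listed, tested or not, was 92.1 to 107 CPM in eWAT aKO siNS and 139.6 to 162 CPM in eWAT Cont siNS. Of 6 mesothelial markers tested 3 and 3 fell. The sum of all 9 listed was 6.09 to 7.84 CPM in eWAT aKO siNS and 25.7 to 26.2 CPM in eWAT Cont siNS, and Krt18 was at 0 in eWAT aKO siNS. Fibroblast and progenitor markers summed to 31358 to 33482 CPM in eWAT aKO siNS and 35393 to 36852 CPM in eWAT Cont siNS, with 4 of 10 higher and 1 lower, and smooth muscle markers to 1922 to 1998 and 2072 to 2427 CPM, with 2 of 9 lower. With siC/EBPb against siNS in Cont, 6 of 9 smooth muscle markers rose and 1 fell in each depot, with a sum of 3803 to 3840.3 CPM in eWAT Cont siC/EBPb and 2072 to 2427 CPM in eWAT Cont siNS. In the same comparison 3 of 6 mesothelial markers rose in each depot and 1 (eWAT) and 2 (iWAT) fell, 2 and 2 of 8 endothelial markers rose and 1 and 1 fell, and 1 and 1 of 10 fibroblast and progenitor markers rose and 3 and 4 fell. Of all tested genes 14.9% and 14.0% fell and 11.8% and 10.3% rose there, so a count of 1 in these short lists lies near those shares. The part of these cells in the levels of the mitosis genes was not tested.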

How the data were processed

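PolyA RNA of 24 samples of mouse adipocytes was sequenced after a directional library kit, per the labels. The authors deposited raw counts of reads per gene for 53465 genes. Per the submitters' processing notes cutadapt 2.7, TopHat2 2.1.1, HTSeq and edgeR were used with GRCm38. No source used here states whether counting used strand, so values of genes with exons on both strands are uncertain. The 5 counter lines (27.5% to 39.5% of listed reads, 95.9% in iWAT aKO siNS replicate 2) were left out.

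The deposited counts were fitted with edgeR 4.0.16 in R 4.3.3: filterByExpr with a minimum count of 10 on 8 groups, TMM scaling (factors 0.985 to 1.04, and 0.840 in the shallow library), 1 mean per group, robust glmQLFit, and 14 contrasts by the quasi-likelihood F test, adjusted by Benjamini and Hochberg over all 14785 genes with a threshold of 0.05. GENCODE M21 gave symbols, exon lengths and overlaps, and all 38 symbols matched 1 identifier each. The fit was tested on simulated counts.

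The members, lists and tests were chosen with earlier results of these data known. All 38 members may be named, with values per sample for 14 fixed genes, for the 3 largest and 3 smallest changes of a contrast and for called interactions, and up to 4 genes of a list by smallest p.

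Among the pairs of groups compared here, same-numbered libraries all deviated together only for iWAT against eWAT in Cont siNS. There r was from 0.270 to 0.425 over 8159 genes. For the depots in aKO siNS, which holds the shallow library, r ran from -0.528 to 0.541. The depots were not compared under siC/EBPb, so pairing there was not checked. No label explains the numbers, and the 2 depots may not be independent of each other. The alternatives tried were a CPM filter (1 or more, 12 libraries) or none, DESeq2 size factors, limma 3.58.1 voom with sample weights, the Wald test of DESeq2 1.42.0, a fit on only the libraries compared, a replicate block, each library left out, and the shallow library left out.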

Additional observations from a re-analysis of the deposited data

Results flagged for a closer look

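For 13 genes the siRNA effect differed between aKO and Cont in eWAT by a test of the difference itself, the genotype by siRNA interaction (edgeR QL, adjusted p under 0.05; log2 effect in aKO minus that in Cont). The values were 0.462 for Top2a, 0.552 for Aurka, 0.454 for Incenp, 0.563 for Cenpe, 0.616 for Cenpf, 0.555 for Kif11, 0.594 for Kif2c, 0.671 for Kif4, 0.542 for Tpx2, 0.613 for Hmmr, 0.473 for Cdc20, 0.654 for Prc1 and 0.847 for Anln. In iWAT the same test passed for 4 genes, with 0.440 for Top2a, 0.736 for Hmmr, 0.642 for Prc1 and 0.766 for Anln. Of the 13 eWAT calls, those of Cenpf, Prc1 and Anln were past the threshold under each of the 20 alternatives run, and in iWAT that of Anln under each of 19.

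That 13 passed in eWAT and 4 in iWAT does not show a difference between the depots, which was not tested for the interaction.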

How the results depend on the processing

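The median log2 fold change of the 38 genes kept its sign under every alternative in the comparisons of aKO with Cont, of siC/EBPb with siNS in Cont and in both interactions. Over 14 contrasts and all alternatives 8170 values of single genes were computed, of which 7791 stayed on the same side of the threshold, 263 lost a call, 116 gained one and 0 reversed. With each library left out in turn, the members called ranged from 34 to 37 in eWAT and 27 to 37 in iWAT for aKO against Cont with siNS, from 2 to 13 and 3 to 6 with siC/EBPb, from 30 to 36 and 22 to 31 for siC/EBPb against siNS in Cont, from 6 to 11 and 3 to 6 in aKO, from 3 to 17 and 1 to 7 for the interaction, and from 0 to 1 for iWAT against eWAT in aKO siNS. Fits on the groups of a contrast alone called 23 in iWAT for aKO against Cont with siNS, 4 in eWAT with siC/EBPb, and 1 in iWAT for siC/EBPb against siNS in aKO. With no filter, 3 were called in iWAT for aKO against Cont with siC/EBPb, 6 in eWAT for siC/EBPb against siNS in aKO and 7 for the iWAT interaction. Voom called 15 in iWAT for aKO against Cont with siC/EBPb, 20 and 7 for the eWAT and iWAT interactions and 1 for iWAT against eWAT in aKO siNS. DESeq2 called 7 for the eWAT interaction. The fits on single contrasts hold fewer samples, and the cause of these moves was not tested.

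Counts over all genes moved by more than 1.5 times in some alternatives, from 2243 to 743 in iWAT for aKO against Cont with siNS and from 4624 to 2374 in iWAT for siC/EBPb against siNS in aKO with the groups alone, from 938 to 2059 for the eWAT interaction and from 519 to 1235 for the iWAT interaction by voom, from 938 to 1690 in eWAT without the shallow library, and from 519 to 921 and 290 in iWAT with no filter and with the groups alone. Voom called 2568 genes, not 1483, in iWAT for aKO against Cont with siC/EBPb, and 5938, not 3958, in eWAT for siC/EBPb against siNS in Cont. With single libraries left out, the count was 451 to 1105 for the eWAT interaction (lowest without aKO siC/EBPb replicate 1), 289 to 938 for the iWAT interaction (lowest without aKO siC/EBPb replicate 1, highest without the shallow library), 1439 in iWAT for aKO against Cont with siNS (without aKO siNS replicate 3) and 945 with siC/EBPb (without aKO siC/EBPb replicate 1). The share of all genes called moves with these counts. Depot differences went from 178 genes to between 31 and 1144 in Cont siNS and from 52 to between 0 and 1091 in aKO siNS, and with no filter the depot differences of the genotype and siRNA effects had 18 and 6 genes.

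With a replicate block the members called were 36, 35, 9, 6, 36, 33, 11, 6, 17 and 6 for the 10 comparisons in the order above (eWAT before iWAT), and 0 in the depot comparisons. No count moved by over 1.5 times. The block fits a replicate effect shared by all groups. It cannot model a deviation shared only by the depots in Cont siNS, so it does not show whether pairing there matters. The share of member promoters with a CHR match was 80.6% in a window of 150 bases, against 17.6% of all windows. Depth limits single genes in the shallow library, and its fibroblast and leukocyte marker sums also differed from those of the other libraries of its group.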
